A study of Homo sapiens with 2 samples.

Results

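The regions described here are the ChIP-seq summits (the highest point of each called peak) that lay on chromosome 19 more than 1000 bp from either end of any protein-coding gene. They were chosen by position alone from the 2 deposited peak lists, without a threshold on height, and they numbered 3025 in the TCF19 overexpression list and 3329 in the control list. Together these are 6354 of the 282546 summits of both lists. The class was singled out because its counts in the 2 lists had already been seen to differ from those of other chromosomes, so the counts are given as a description and no test of them is offered.

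Ishikawa cells are a long-established line from a human endometrial cancer, and the study set a population infected with a TCF19 over-expressing lentivirus against one that had received a control lentivirus. Both populations were selected with puromycin and both were precipitated with the same antibody to TCF19. Each group had 1 library, so no spread between cultures is known and no p-value was computed for any result. Whether the selected cells were a pool or a clone, and which promoter drove the transgene, is not given in the sources used here. Peak lists carry no expression, so the cell line label could not be checked against markers.

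TCF19 is found in the nucleus and carries a forkhead-associated domain and a PHD finger, which in many proteins reads methylated histone tails. Chromosome 19 is known as the human chromosome most crowded with genes, is rich in G and C bases, and carries large clusters of Krüppel-type zinc finger genes beside clusters of immune receptor, adhesion and cytochrome P450 genes. On it, sequence away from coding gene ends consists of gene interiors, short spacers between genes, and the ends of non-coding genes.

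The overexpression list held 112212 summits and the control list 170334, and the depths were close, with a genome average of 51.8 and 58.0 reads per 10 kb. TCF19 itself, on chromosome 6, had 3 called summits inside the gene in the overexpression library, the highest of 143 reads, and 0 in control. Reads of the gene and of the transgene cannot be told apart there. Pileup below is the number of reads over a summit, recovered as whole reads from the deposited values. Fold is the authors' ratio of pileup to local background, and local background is the read density around a summit, given as a multiple of the library's genome average. Positions are on chromosome 19 of hg38 and counted from 1.

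Among the regions of this class, 300-base windows at the starts of non-coding genes are shown first, because they hold called regions whose sequence is in the RefSeq table. The windows shown are those of highest fold with an interval in the overexpression list alone, with summits of both lists and with an interval in the control list alone. The sequences are from RefSeq on GRCh38.p14, on the strand of the gene and 5′ to 3′, with 250 bases before the annotated start and 50 after it, and capitals mark each CG dinucleotide. ZSCAN5A-AS1 is an antisense RNA gene in the zinc finger cluster near the end of the long arm. Its window is chr19:56314453-56314752 on the plus strand, and only the overexpression list had an interval there. The window of LINC01775, a long non-coding RNA gene, is chr19:2462136-2462435 on the minus strand and likewise had an interval in the overexpression list alone. The window of CYKILR, a long non-coding RNA gene, is chr19:36268834-36269133 on the plus strand and had a summit in both lists. The window of LOC105372460, an RNA gene beside the killer-cell receptor cluster, is chr19:54527061-54527360 on the minus strand, and only the control list had an interval there.
ZSCAN5A-AS1: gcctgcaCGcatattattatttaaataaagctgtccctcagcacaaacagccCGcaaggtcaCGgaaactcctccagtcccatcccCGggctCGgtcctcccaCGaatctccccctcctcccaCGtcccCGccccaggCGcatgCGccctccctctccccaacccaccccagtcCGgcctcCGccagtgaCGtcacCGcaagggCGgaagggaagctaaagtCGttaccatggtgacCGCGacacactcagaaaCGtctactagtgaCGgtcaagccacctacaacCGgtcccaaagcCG
LINC01775: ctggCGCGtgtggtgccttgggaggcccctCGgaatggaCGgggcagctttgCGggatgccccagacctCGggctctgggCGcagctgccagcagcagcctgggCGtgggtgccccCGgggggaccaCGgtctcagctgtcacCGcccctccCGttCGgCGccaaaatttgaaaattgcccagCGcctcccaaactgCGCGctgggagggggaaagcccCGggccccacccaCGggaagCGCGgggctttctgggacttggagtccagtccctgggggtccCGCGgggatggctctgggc
CYKILR: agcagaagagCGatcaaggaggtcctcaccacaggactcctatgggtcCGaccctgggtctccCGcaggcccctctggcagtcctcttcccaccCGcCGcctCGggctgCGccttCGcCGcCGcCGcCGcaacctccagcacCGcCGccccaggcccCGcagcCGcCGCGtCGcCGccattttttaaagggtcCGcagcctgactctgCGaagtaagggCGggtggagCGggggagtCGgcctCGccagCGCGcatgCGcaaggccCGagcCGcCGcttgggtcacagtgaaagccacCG
LOC105372460: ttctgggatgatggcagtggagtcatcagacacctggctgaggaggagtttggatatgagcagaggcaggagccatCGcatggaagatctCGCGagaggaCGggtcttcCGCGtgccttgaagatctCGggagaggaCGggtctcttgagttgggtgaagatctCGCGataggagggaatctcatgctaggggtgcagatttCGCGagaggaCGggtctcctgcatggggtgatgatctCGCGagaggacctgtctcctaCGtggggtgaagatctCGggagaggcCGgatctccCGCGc

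In the ZSCAN5A-AS1 window, 61% of bases were G or C and 22 CG dinucleotides were counted, and the overexpression summit at 56314717 had 15 reads (exact 95% Poisson interval 8.4 to 24.7) and a fold of 4.52. LINC01775 had 71% G and C bases and 23 CG dinucleotides, with an overexpression summit of 22 reads (13.8 to 33.3) and a fold of 3.98 at 2462301. The CYKILR window had 70.7% G and C bases and 33 CG dinucleotides, with 86 reads (68.8 to 106.2) and a fold of 7.68 in the overexpression library and 73 reads (57.2 to 91.8) and a fold of 6.70 in control. The control summit at LOC105372460, at 54527091, had 16 reads (9.15 to 25.98) and a fold of 6.07. Its window had 58.7% G and C bases and 20 CG dinucleotides.

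Non-coding gene starts were called more often on chromosome 19 than elsewhere, in both lists. Of 265 starts that lay more than 1000 bp from coding gene ends, 38 (14.3%, Wilson interval 10.6% to 19.1%) had an overexpression summit in the 300-base window, against 598 of 10009 (5.97%) on 20 other autosomes and 6.19% over all of them together. A control summit lay in 25 (9.43%, 6.47% to 13.6%) of the chromosome 19 windows, against 556 of 10009 elsewhere and 5.66% over all. On chromosome 19, 14 windows had an interval of the overexpression list alone and 5 one of the control list alone, while 10 held summits of both. These were 5.28% and 1.89% of the chromosome 19 windows, against 1.64% and 1.54% on the other autosomes and 1.73% and 1.55% over all of them together. A further 14 held an overexpression summit and 10 a control summit within intervals that the other list overlapped, and 212 held no summit. The 14 windows of the overexpression list alone had a median of 65.2% G and C bases and 20 CG dinucleotides. The 5 of the control list alone had 58.7% and 11, and the 10 with summits of both lists 63.3% and 24.5. The further 14 had 66.2% and 22.5, the further 10 had 63.2% and 19.5, and the 212 without a summit 55% and 6. On the other autosomes, windows of the overexpression list alone had 64% and 20. Those of the control list alone had 57.3% and 8, and those without a summit 45.7% and 3. Several windows overlap, or belong to 1 gene with more than 1 start, so they are not independent.

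The class was denser on chromosome 19 than on any of the other 21 autosomes in the overexpression list, and not in the control list. Per Mb of eligible sequence (more than 1000 bp from coding gene ends, 53.5 Mb on chromosome 19) there were 56.6 overexpression summits, against a median of 31.8 on the other autosomes and a range of 24.4 on chromosome 4 to 49.4 on chromosome 17. Control summits numbered 62.2 per Mb, the fourth highest value, against a median of 53.1 and a range of 40.8 on chromosome 4 to 72.8 on chromosome 12. Chromosome 19 thus stood at 1.78 times the median of the others in the overexpression list and at 1.17 times in control. The eligible length counts each base up to the last gene or peak, assembly gaps included, so chromosomes with long gaps have lower values. With only 1 Mb windows that hold a summit of any class, these ratios were 1.78 and 1.19, and ranks were not recomputed in that setting. With summits restricted to a local background no higher than 3 times average, and the eligible length unchanged, the ratios to the median were 1.32 and 0.911. This drops 35.8% of overexpression and 28.6% of control members of chromosome 19, against 13.97% and 8.74% on the other autosomes. The sequence around the dropped summits stays in the length, so these are not densities of low-background sequence.

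The ratio of overexpression to control summits in this class was 0.909 on chromosome 19 and 0.604 on the other autosomes together. It was the highest of the 22 autosomes, followed by chromosome 22 at 0.843, and chromosome 8 had the lowest at 0.555. With all summits counted, those at gene ends included, the ratio was 1.011 on chromosome 19 (3968 and 3925 summits). When the 107758 autosomal summits of highest fold were taken from each list, chromosome 19 kept 3025 overexpression and 1532 control summits of this class, a ratio of 1.97 against 0.892 on the other autosomes together. This cut removes only control summits of lower fold, and control members had a median fold of 3.38 on chromosome 19 against 3.87 elsewhere. It therefore removed a larger share of them on chromosome 19, and the setting is no independent check of the ratio. Restricted to local backgrounds of at most 3 times the average, the ratio was 0.818 against 0.569. Chromosome 19 had the highest ratio of the 22 under each of these settings, and chromosome 22 followed.

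Chromosome 19 holds 24.8 coding genes per Mb, against 14.04 on chromosome 17, the next, and a median of 5.66 on the other autosomes. Of its overexpression summits in this class, 63.9% lay inside a protein-coding gene, and of its control summits 55.5%, while 53.6% of the eligible sequence was inside such genes. The medians on the other autosomes were 48.8%, 48.0% and 41.2%, so an excess of overexpression summits inside genes was not particular to chromosome 19. Inside coding genes there were 1933 overexpression and 1847 control summits, a ratio of 1.05, and outside coding genes 1092 and 1482, a ratio of 0.737.

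Individual summits were low and stood on raised local background. The pileup of the members in the overexpression library had a lowest value of 6 reads, a median of 15 and a highest of 244, and in control the values were 6, 14 and 224. The other autosomes had medians of 13 reads in the overexpression library and 12 in control. The median fold on chromosome 19 was 3.49 in the overexpression list and 3.38 in control, below the 4.08 and 3.87 of the other autosomes. The median local background was 2.43 times the genome average for overexpression members and 2.07 times for control members, each the highest of the 22 autosomes, against 1.45 and 1.16 elsewhere. Background above 3 times the average was found at 35.8% of overexpression and 28.6% of control members, against 13.97% and 8.74% on the other autosomes. With summits of higher background left out, the ratio of counts was nearer to that of the other autosomes, as given above, and remained the highest of the 22.

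The excess over other autosomes varied with distance from the nearest coding gene end. From 1001 to 2000 bp there were 352 overexpression and 284 control members, a ratio of 1.24, against 0.835 on the other autosomes together. The ratio was 0.982 from 2001 to 5000 bp (0.711 elsewhere), 0.934 from 5001 to 10000 bp (0.663 elsewhere) and 0.893 from 10001 to 50000 bp (0.617 elsewhere). Beyond 50000 bp it was 0.614, from 270 overexpression and 440 control members, against 0.548 elsewhere. Chromosome 19 ranked 2, 1, 1, 2 and 3 among the 22 autosomes from the nearest band to the farthest. Chromosome 22 lay above it in the nearest band, at 1.32, from 10001 to 50000 bp, at 0.909, and beyond 50000 bp, at 0.719. Only the band nearest to the gene ends held more overexpression than control members. Just inside the 1000 bp limit, at 1001 to 1100 bp, lay 50 overexpression members with a median pileup of 17 reads and 33 control members with 14 reads. Just outside it, at 901 to 1000 bp, lay 49 overexpression summits with a median of 19 reads and 32 control summits with 16.5 reads.

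**Figure D1:**
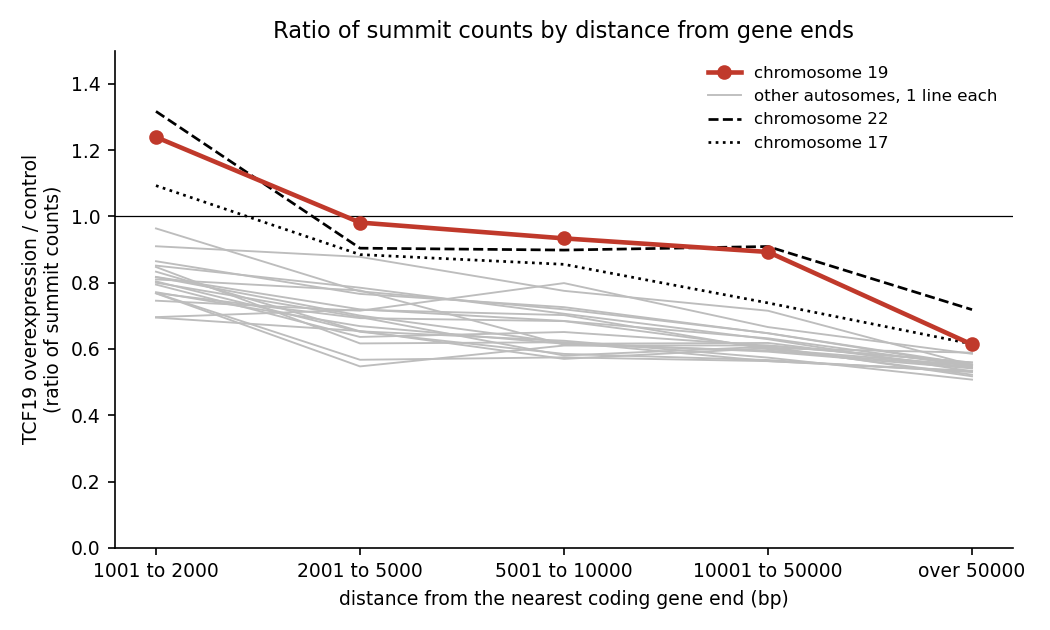
Ratio of TCF19 overexpression to control summit counts (y axis) by distance from the nearest end of a protein-coding gene in bp (x axis), 1 line per autosome. Chromosome 19 (red) runs from 1.24 in the nearest band to 0.614 in the farthest, and chromosomes 22 and 17 (dashed and dotted) run nearest to it.

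Strand was known for 1185 of the 1451 coding genes of chromosome 19, which allowed starts and 3′ ends to be told apart for members within 5000 bp of an end. Inside the gene before the 3′ end there were 292 overexpression and 250 control members (ratio 1.17, against 0.771 on the other autosomes). Downstream of the start there were 192 and 170 (1.13, against 0.851). Beyond the 3′ end there were 138 and 148 (0.932, against 0.684), and upstream of the start 106 and 120 (0.883, against 0.639). On chromosome 19 the members inside gene bodies near either end were thus more numerous in the overexpression list, and those outside genes near either end were fewer.

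Along the chromosome, the 2 lists exchanged places several times. In windows 1 to 20 of 1 Mb each, which cover most of the gene-rich short arm, there were 1106 overexpression and 957 control members, and the overexpression count was the higher one in 16 of 20 windows. Windows 21 to 25, which hold an array of zinc finger genes next to the centromere, had 178 and 284, with the control count higher in all 5. Windows 26 and 27 held no summit of any class in either list, which allows up to 3.69 summits in each by counting error alone. These windows include the centromere. Windows 28 to 35 of the gene-poor proximal long arm had 353 overexpression and 521 control members. Windows 36 to 51 had 991 and 1023, nearly equal numbers. Windows 52 to 59 had 397 and 544, with the overexpression count higher in 1 of 8. Over all autosomes the overexpression count was the higher one in 5.21% of windows with at least 20 summits, so a higher control count is the usual case. The ratios in windows 21 to 25, 28 to 35 and 52 to 59 were 0.627, 0.678 and 0.730, against 0.604 on the other autosomes together. These groups of windows serve for description only.

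**Figure D2:**
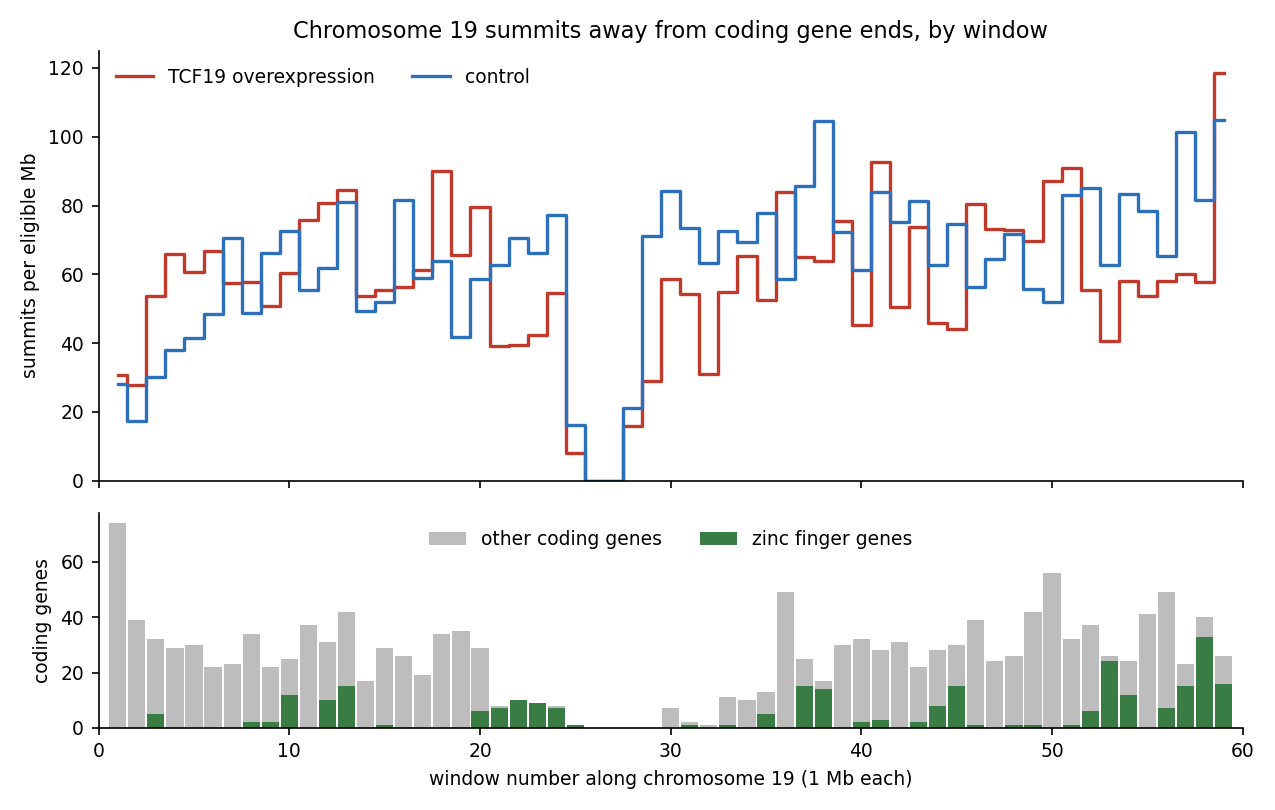
Summits per eligible Mb (upper panel) in the TCF19 overexpression (red) and control (blue) lists, and number of protein-coding genes with zinc finger genes in green (lower panel), for the 59 windows of 1 Mb along chromosome 19. Red lies above blue in 16 of the first 20 windows and below it in each of windows 21 to 25. Over all autosomes the overexpression count was the higher one in 5.21% of windows with at least 20 summits.

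The overexpression list was densest in window 59, a part window of 0.514 eligible Mb at the end of the long arm, with 61 members (Poisson interval 46.7 to 78.4) or 119 per Mb. Window 41, around MAP3K10 and AKT2, followed with 84 members (67.0 to 104.0), and window 51, around MYH14, NR1H2 and POLD1, with 81 (64.3 to 100.7). The control list was densest in window 59 as well, with 54 members (40.6 to 70.5) or 105.0 per Mb, then in window 38 with 98 (79.6 to 119.4) and window 57 with 93 (75.1 to 113.9). In window 38, 14 of 17 coding genes are zinc finger genes, and the overexpression list had 60 members there (45.8 to 77.2). Window 57 had 55 overexpression members (41.4 to 71.6). Both windows were picked for their high control counts, so their intervals in the 2 lists cannot be set against each other as a test. The ratios of these windows, 0.612 and 0.591, are about the 0.604 of the other autosomes together, where the control list is the longer one too. Apart from the empty windows, the fewest members were in window 25, with 8 in the overexpression list and 16 in control.

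Among windows with at least 20 summits, the overexpression count was above the control count in 26 of 57 windows on chromosome 19 (45.6%) and in 115 of 2649 elsewhere (4.34%), or 5.21% over all autosomes. The ratio followed the number of coding genes in a window. In the 20 windows with over 30 genes there were 1124 overexpression and 1021 control members (ratio 1.10), against 0.869 in windows of that class elsewhere. In windows with 21 to 30 genes the ratio was 0.922 (0.797 elsewhere), with 11 to 20 genes 0.788 (0.676 elsewhere), with 6 to 10 genes 0.695 (0.590 elsewhere), and with 0 to 5 genes 0.566 (0.546 elsewhere). Chromosome 19 therefore stood above the other autosomes in each class of gene number, by the least in the windows with the fewest genes. Across the 57 windows the log2 ratio had a Spearman correlation of 0.56 with the number of coding genes and of 0.88 with the median local background of the control library. These windows share both libraries and neighbours, and the control background comes from the library that also gives the control counts. The corresponding values over 2649 windows elsewhere were 0.28 and 0.47.

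Zinc finger genes, most of which encode DNA-binding repressors, had fewer overexpression than control members, in a ratio near the 0.604 of the whole class on the other autosomes and below that of all coding genes of chromosome 19. Inside 264 zinc finger genes there were 354 overexpression members, or 50.7 per eligible Mb of these genes, and 544 control members, or 77.9 per Mb, a ratio of 0.651 beside the 1.05 of all coding genes. An overexpression member lay in 158 of the 264 genes (59.8%) and a control member in 196 (74.2%). Over all 1451 coding genes of chromosome 19 these shares were 52.9% and 50.5%, and over the coding genes of all autosomes 60.6% and 65.3%. In the 14 windows where at least 50% of coding genes were zinc finger genes, a limit chosen after the map had been seen, there were 646 overexpression and 949 control members, and 1 window, the part window 59, had the higher overexpression count. In the 19 windows with over 30 genes and a lower zinc finger share, there were 1075 and 952, and 14 windows had the higher overexpression count. The median local background in the zinc finger windows was 1.78 in the overexpression library and 1.44 in control, and in the 19 gene-rich windows it was 2.99 and 3.17. Zinc finger genes have close copies, so reads may have been placed on the wrong member of a cluster.

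The other clustered families gave small counts. Beside them, the ratio of overexpression to control members was 1.05 in all coding genes of chromosome 19. It was 0.604 for the class on the other autosomes together. NLRP genes, which encode innate immune sensors, held 13 overexpression and 30 control members, and CEACAM and PSG genes, which encode adhesion and pregnancy-specific glycoproteins, held 9 and 24. The LILR, KIR and LAIR receptors of leukocytes held 15 and 19, the SIGLEC receptors for sialic acid 14 and 19, and olfactory receptors 9 and 14. The CYP2 and CYP4F genes, which encode oxidising enzymes of the liver and other tissues, held 15 and 17. Kallikrein proteases held 8 and 6, the FUT fucosyltransferases 5 and 2, and the FFAR fatty acid receptors 6 and 5. The galectin genes and the CGB and LHB gonadotropin genes, which are short, held 0 in both lists. These families also have near-identical copies, and their counts are uncertain for that reason.

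The genes with the most members were long ones. ZNF536, which encodes a zinc finger protein of neurons, spans 488 kb and held 30 overexpression and 43 control members. SIPA1L3 held 23 and 27, SPTBN4, which encodes a spectrin of axons, 19 and 16, and RYR1, the calcium release channel of skeletal muscle, 18 and 16. GNG7, which encodes a G protein subunit and lies in window 3, held 18 overexpression and 10 control members. In the control list ZSCAN5A followed, with 14 overexpression and 22 control members, then CACNA1A, a neuronal calcium channel gene, with 14 and 19, and the mucin gene MUC16 with 8 and 19.

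Sharing between the lists was lower for overexpression intervals of chromosome 19 than elsewhere, and slightly higher for its control intervals as a whole, though not in every class of local background. An interval is a called peak region, which can hold several summits, and it was counted as shared when it overlapped an interval of the other list by at least 1 bp. Of 2801 overexpression intervals, 1345 (48.0%, Wilson interval 46.2% to 49.9%) were shared, against 67.9% of those on the other autosomes and 67.3% over all autosomes. This was the lowest share of the 22 autosomes, just under the 49.2% of chromosome 22, while chromosome 12 had the highest at 76.0%. With lists of equal length, which drop only control summits of lower fold, the share was 23.2% on chromosome 19, again the lowest. It was 50.2% on the other autosomes together, and the setting is no independent check of this share. Of 3136 control intervals, 1370 (43.7%, 42.0% to 45.4%) were shared, the highest share of the 22, against a range of 37.3% on chromosome 16 to 42.7% on chromosome 4 and 40.4% over all autosomes. With lists of equal length the control share was 44.5% on chromosome 19 and 43.4% on the other autosomes together, and chromosome 19 ranked 7.

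Overexpression intervals that overlapped no control interval numbered 27.2 per eligible Mb (1456 intervals), the highest value of the 22 autosomes, against a median of 9.20 on the other autosomes and a highest value of 21.3 on chromosome 17. Control intervals without an overexpression counterpart numbered 33.0 per Mb (1766 intervals), against a median of 30.04, and chromosome 19 ranked 5. Overexpression intervals that overlapped control numbered 25.1 per Mb, against a median of 20.2 and a highest value of 29.2 on chromosome 12, and chromosome 19 ranked 3.

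**Figure D3:**
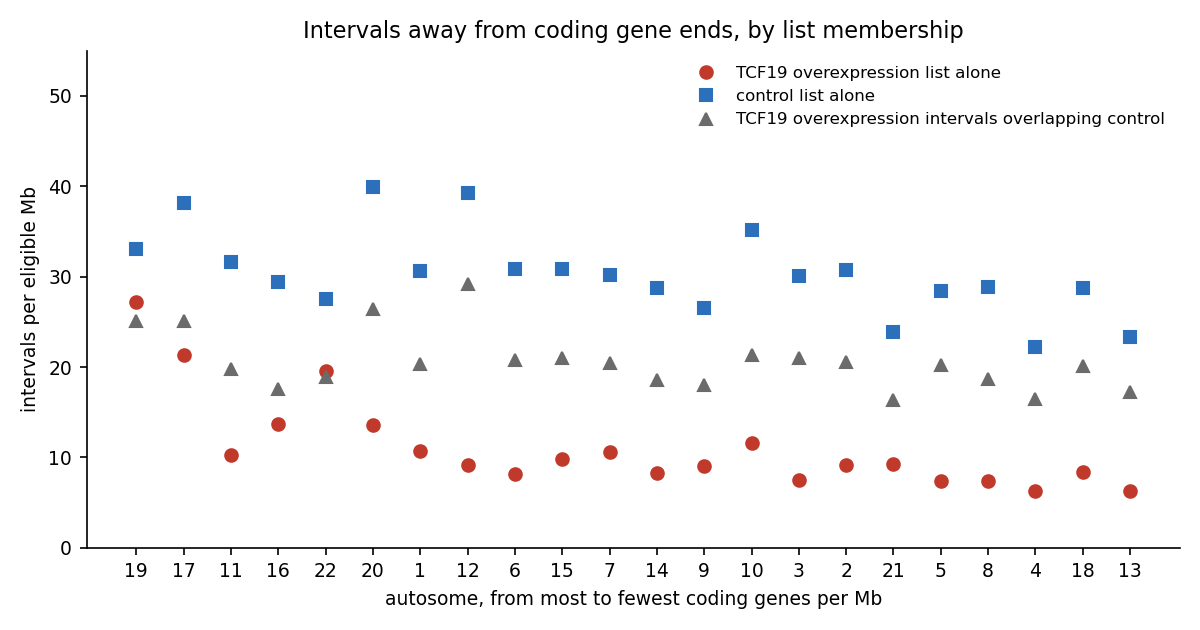
Intervals per eligible Mb (y axis) for each autosome, ordered from most to fewest coding genes per Mb (x axis): intervals of the TCF19 overexpression list alone (red circles), of the control list alone (blue squares) and overexpression intervals that overlap a control interval (grey triangles). Chromosome 19, at the left, has the highest red value, 27.2 per Mb, and ranks 5 of 22 for blue and 3 of 22 for grey.

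Sharing varied with fold and with local background. Overexpression intervals below 3-fold were shared in 25.6% of 747 cases on chromosome 19, against 39.8% elsewhere, and those of 3- to 4-fold in 44.3% of 1184, against 60.02%. The shares came together with rising fold, at 85.3% of 252 intervals against 86.4% for 5- to 7-fold, and all 7 intervals of 9-fold or more were shared. Control intervals of chromosome 19 were shared more often than elsewhere at low fold, in 42.7% against 35.1% below 3-fold, and in 58.4% against 58.7% at 5- to 7-fold. At local background of up to 2 times the average, 65.2% of overexpression intervals on chromosome 19 and 74.9% elsewhere were shared, and above 5 times it was 11.4% and 34.4%. The share of overexpression intervals was lower on chromosome 19 in each background class. Control intervals of chromosome 19 went both ways: 35.7% against 37.6% were shared at up to 2 times, 54.2% against 52.9% at 2 to 3 times, 51.4% against 49.1% at 3 to 5 times and 29.4% against 47.0% above 5 times. For 1272 overexpression intervals, control had a computed probability of at least 0.95 of calling an equal occupancy, and 60.2% (57.5% to 62.9%) of these were shared, against 76.1% elsewhere. For 492 such control intervals the share was 61.4% (57.0% to 65.6%), against 61.8% elsewhere. These probabilities use the interval's own background scaled to the other library and can be too high, since summits are picked as local maxima. At paired summits the mean log2 ratio of overexpression to control background was -0.16 on chromosome 19 and -0.03 elsewhere. For overexpression intervals the probabilities can therefore be too high by more on chromosome 19.

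**Figure D4:**
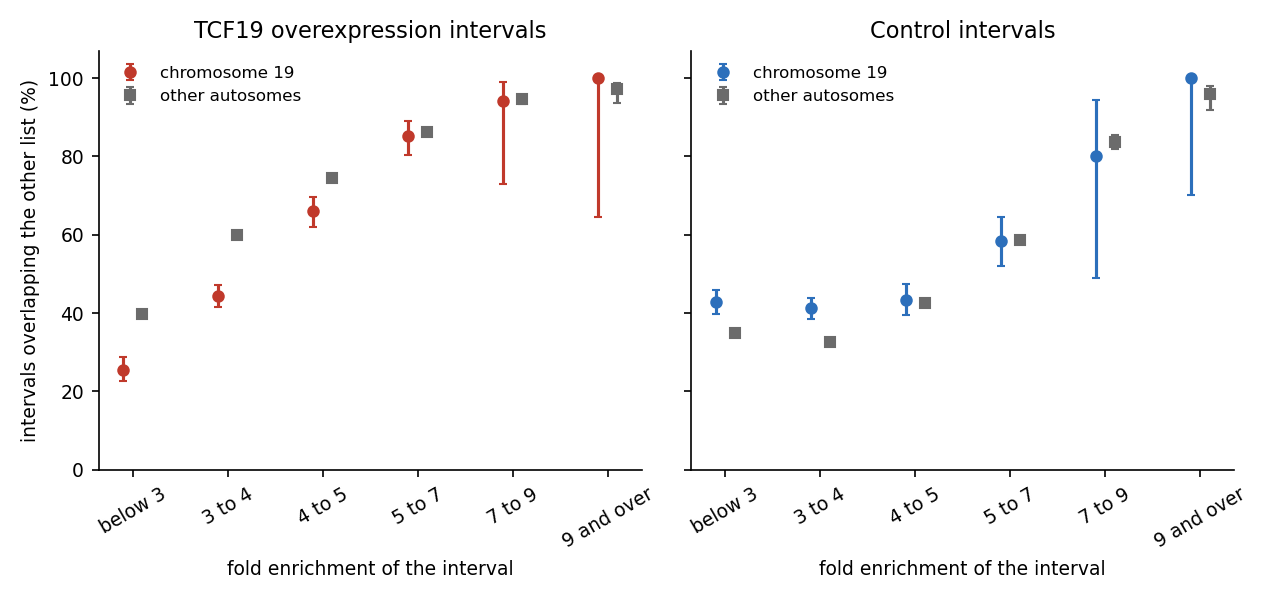
Percent of intervals that overlap the other list (y axis) by fold enrichment of the interval (x axis), for TCF19 overexpression intervals (left) and control intervals (right), on chromosome 19 (circles) and the other autosomes (squares), with Wilson 95% intervals. On the left chromosome 19 lies below the other autosomes under 5-fold, at 25.6% against 39.8% in the lowest class.

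Intervals of the overexpression list alone stood on the highest background, with a median of 2.90 times the average, a median fold of 3.23 and a median width of 365 bp. Shared overexpression intervals had 1.97 times, 3.93-fold and 465 bp. Control intervals alone had 1.78 times, 3.37-fold and 343 bp, and shared control intervals 2.35 times, 3.43-fold and 460 bp. By position, overexpression intervals were shared least in windows 1 to 20 (37.2% of 1032) and most in windows 21 to 25 (76.5% of 153). Control intervals varied less, from 40.5% in windows 52 to 59 to 47.5% in windows 21 to 25.

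Where both libraries had a summit at the same place, the pileups were close. Summits of the lists within 100 bp of each other formed 716 pairs on chromosome 19, and the log2 ratio of overexpression to control pileup, each over its genome average, had a mean of 0.08 ± 0.42 (SD over pairs of 1 library each). On the other autosomes 34279 pairs had a mean of 0.07 ± 0.46, and chromosome 19 ranked 10 of 22. Overexpression pileups at least 1.5-fold higher were found at 76 pairs (10.6%, against 13.2% over all autosomes) and at least 1.5-fold lower at 38 (5.31%, against 7.66%). The mean turned to -0.0054 when lists of equal length were taken. Local background at the same pairs had a mean log2 ratio of -0.16, the lowest of the 22 autosomes, beside -0.03 for the others together. By position, windows 21 to 25 stood out, with a mean log2 pileup ratio of 0.33 and a log2 background ratio of 0.16 over 62 pairs, while windows 1 to 20 had 0.07 and -0.21 over 200 pairs.

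The members of highest fold were shared by both lists. A summit inside CYKILR had 142 reads (119.6 to 167.4) and a fold of 24.9 in the overexpression library, and 131 reads (109.5 to 155.4) and a fold of 24.8 in control. It lay at 36294971 in the overexpression list and at 36294951 in control, and another inside the same gene, at 36282281 and 36282280, had 38 and 39 reads. Next to SNAR-C3, 1 of many near-identical genes for small RNAs that bind the protein NF90, 151 reads (127.9 to 177.1) were found in the overexpression library and 144 (121.4 to 169.5) in control. Near ZNF875 the highest pileup of the class, 244 reads (214.3 to 276.6) at 37294487, faced 224 (195.6 to 255.3) in control, and the local background there was 12.8 times average for the overexpression summit and 10.5 times for the control summit. At each of these places the Poisson intervals overlapped. How reads that match several places were handled is not given in the sources used here, so the summits near SNAR genes are uncertain.

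Of the 175 pairs with at least 20 reads in the higher library, the widest ratio toward control was near SNAR-A14. The overexpression summit at 50099085 had 16 reads (9.15 to 25.98) and the control summit 51 (38.0 to 67.1), a log2 ratio of -1.53. This pair was picked for its wide ratio, so its Poisson intervals cannot serve as a test. The pair lies in a run of SNAR copies and is uncertain, as the other summits near SNAR genes are. Others in that direction were a summit in the pseudogene CYP2A7P1, with 11 and 25 reads, and 1 in ZSCAN5A, with 10 and 22. In FUT2, which encodes the fucosyltransferase of secretor status, 13 overexpression reads faced 24 control reads. In the other direction the widest ratio, a log2 value of 1.53, was shared by 2 pairs of 26 overexpression and 10 control reads (16.98 to 38.1, against 4.80 to 18.4, overlapping). They lie between genes at 11662453 and inside TDRD12, which encodes a Tudor domain protein of the piRNA pathway of germ cells, at 32745114.

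**Figure D5:**
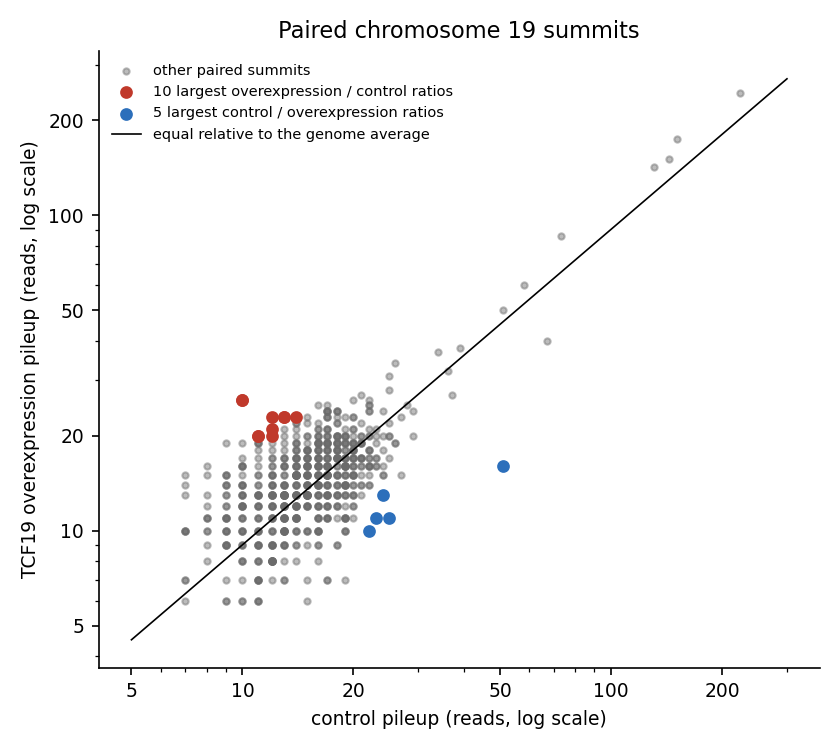
Pileup in reads at 716 pairs of chromosome 19 summits within 100 bp of each other, TCF19 overexpression (y axis) against control (x axis), both on log scales. The line marks pileups that are equal relative to the genome averages. The blue point with 16 overexpression and 51 control reads lies near SNAR-A14.

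The overexpression intervals of highest fold without a control counterpart were led by a summit in ZNF230 at 44005078, with 17 reads (9.90 to 27.2) and a fold of 7.31. A summit in ZNF730 at 23117075 had 16 reads and a fold of 6.33. One in GATAD2A, which encodes a subunit of the NuRD chromatin remodelling complex, had 25 reads (16.2 to 36.9) and a fold of 5.99 at 19405418. ZFP28 and ZNF536 had summits of 16 reads each at 56538502 and 30549334. Of these 10 intervals, 5 lay inside coding genes, and the others lay between genes near LYPD3, ZNF567, ZNF724, ADGRE2 and LGALS13. Their pileups were between 13 and 25 reads.

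The control intervals of highest fold without an overexpression counterpart were led by a summit in the long non-coding RNA gene LINC02841, at 31543623, with 20 reads (12.2 to 30.9) and a fold of 8.04. ZNF253 followed with 21 reads (13.0 to 32.1) and a fold of 7.15 at 19875579, and ZNF227 had 16 reads at 44226500. CPAMD8 had 22 reads at 16954969, PSG3, a pregnancy-specific glycoprotein gene, 15 at 42728596, and SLC1A6, a glutamate transporter gene, 16 at 14992547. TSHZ3, which encodes a zinc finger protein of the Teashirt family, had 23 reads (14.6 to 34.5) at 31330444. The window at LOC105372460 shown above belongs to this group. Their pileups were between 15 and 23 reads, a range that overlaps that of the overexpression group.

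Few members lay at microRNA genes. Of 142 microRNA genes on chromosome 19, 9 (6.34%) had an overexpression member within 200 bp, against 4.48% on the other autosomes and 4.63% over all autosomes. A control member lay within 200 bp of 3 (2.11%), against 4.66% on the other autosomes and 4.46% over all autosomes. The overexpression summit at 51692735, of 19 reads, lies between MIR99B and MIRLET7E, which belong to 1 cluster, so it counts for both. The control summit at 13836689, of 22 reads, lies near MIR23A and MIR27A and likewise counts for both. Overexpression summits inside the microRNA gene itself were found at MIR150, a microRNA of lymphocytes, with 15 reads, and at MIR6886 and MIR7974 with 17 reads each.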

How the data were processed

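Chromatin from Ishikawa cells was fixed with formaldehyde, sonicated and precipitated with an antibody to TCF19, per the labels' protocols. BWA 0.7.12, MACS2 2.1.0 and hg38 are named in the submitters' processing notes, while their parameters and any use of an input are not stated there. Each library has its own deposited list of intervals with a score (not used further), a fold enrichment (the authors' ratio to local background), a −log10 p-value and a −log10 q-value. The deposited −log10 q-values correspond to q of at most 0.05.

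Whole-read pileups and local backgrounds were solved from each summit's deposited −log10 p-value and fold, within 0.001 in −log10 p, and failed at 4 overexpression and 5 control summits. Backgrounds above the floor were whole numbers of the same library's reads per 10 kb (within 0.05 read) at 100% of summits, with fragments of 276 bp in the overexpression library and 273 bp in control, so no correction for input is assumed in the folds. The genome average used as depth is the floor of the background.

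Distances used the ends of 20056 protein-coding genes of RefSeq GRCh38.p14, and chromosomes 1 to 22 were analysed. Sequence windows at gene starts came from the RefSeq promoter table, and matched 265 starts of non-coding genes on chromosome 19. Base counts used these windows alone. Poisson intervals for pileups and Wilson intervals for shares are at 95% and cover counting error only, since reads may hold PCR copies.

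With 1 library per group, results are descriptions over 21 other autosomes, which are not replicates. The members, lists and comparisons were chosen with earlier results of these data known. Named regions were the 10 of highest fold per list, the 10 per list of highest fold without a counterpart, the 10 and 5 paired summits of widest ratio in each direction with at least 20 reads in the higher library, the 3 densest and emptiest windows and the 5 genes with most members. Scripts ran under Python 3.11.15 with pandas 2.3.3, NumPy 2.4.6 and SciPy 1.17.1, and were tested on simulated data.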

Additional observations from a re-analysis of the deposited data

How the results depend on the processing

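Of 42 values of the 6 main results under 10 alternatives, 29 stayed within a 95% range around the main value, 12 moved out of it and 1 changed sign. For densities, the ratio of counts and shares, this range is the counting error on chromosome 19. It leaves out any error in the median of the other autosomes. For the mean log2 ratio at pairs the range is the standard error over pairs, which come from 1 library each and are not replicates. With local background of at most 3 times the average, the eligible length was left unchanged. The density of chromosome 19 relative to the median of the other autosomes was then 1.32 for overexpression and 0.911 for control. The ratio of counts was 0.818 and the share of control intervals in both lists 40.8%. Without the windows from 24 to 28 Mb the relative densities were 1.90 and 1.25. With −log10 q of at least 2 44.5% of overexpression and 41.8% of control intervals were shared, and with 50% reciprocal overlap 34.8% and 31.25%. With lists of equal length the ratio of counts was 1.97, the share of overexpression intervals 23.2% and the mean log2 ratio at pairs -0.0054. In that setting the control list loses its summits of lower fold and the overexpression list loses none. The cause of the other changes was not tested. A wider limit from gene ends, ends of all genes, counts by interval, covered windows and pairing within 50 bp left each value within its range.

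No paired analysis was possible because each group has 1 library. Median pileups of 15 reads in the overexpression library and 14 in control limit what a difference at a single summit can show.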
